A study of Homo sapiens with 4 samples.

Results

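The genes described here are 10 genes of antigen presentation by MHC class II, out of 19775 genes that had a probe set of their own. They are HLA-DRA, HLA-DPA1, HLA-DPB1, HLA-DMA, HLA-DMB, HLA-DOA, CD74, CIITA, RFX5 and RFXAP, and every probe set annotated to 1 of these symbols alone was used, 24 in all. They were chosen by their measured intensities on these same arrays, so their differences are given as a description, with no test. All 10 were read in KGN, an established human granulosa tumour line, after an siRNA transfection. The siNC group received a control siRNA at 10 nM and the siYT group received siRNAs to YAP and to TAZ, each at 5 nM. YAP and TAZ are transcriptional co-activators that the Hippo pathway holds back. The medium was changed after 48 h. The groups siNC+8Br-cAMP and siYT+8Br-cAMP then had 0.5 mM 8Br-cAMP, a cyclic AMP analogue that enters cells, for 24 h, and the groups siNC and siYT had none. Each group was 1 Affymetrix array of this 1 line, so no value below has a replicate, and the number of arrays limits the precision of every difference.

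MHC class II molecules are pairs of an alpha and a beta chain that present peptides from the endosomal route to CD4+ T cells. In the endoplasmic reticulum the new pair is held by the invariant chain, encoded by CD74, and in endosomes HLA-DM exchanges the last fragment of that chain for a peptide, while HLA-DO restrains HLA-DM. Transcription of these genes depends on a promoter module of X and Y boxes, bound by the RFX complex (RFX5, RFXAP and RFXANK), by CREB and related factors, and by NF-Y. CIITA, which does not bind DNA itself, is recruited by these factors and switches the genes on, and interferon-gamma acts mainly by inducing CIITA. Class II is constitutive on B cells, dendritic cells and macrophages, and many other cell types express it when induced. The HLA genes lie in the class II region of chromosome 6, with HLA-DMB, HLA-DMA, HLA-DOA, HLA-DPA1 and HLA-DPB1 following each other in this order among the class II genes, while RFX5 is on chromosome 1, CD74 on 5, RFXAP on 13 and CIITA on 16.

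Intensities are given as deposited, on a linear scale. Where 4 of them stand in a row, the first pair is from control siRNA and the last pair from YAP/TAZ knockdown, each without and then with 8Br-cAMP. The table's median value, 62.6, served as a floor below which a value was treated as not measured, and a gene was represented by its probe set with the highest mean log2 level. All 10 genes were above the floor on at least 1 array and so were among the 14427 genes compared, and 8 of them were above it on all 4 arrays. Of the 24 probe sets, 21 passed on at least 1 array and 9 on all 4. A gene was called higher or lower at 2-fold, and a fold against a value below the floor is written as at least that fold. As a scale of measurement error, each log2 difference is set against the SD of that difference among probe sets of 1 gene at a similar level. This SD leaves out the variation between cultures.

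The siRNA targets were lower on both siYT arrays. YAP1 read 4915 without and 4772 with 8Br-cAMP under control siRNA, and 1295 without and 1412 with it after knockdown, and WWTR1, which encodes TAZ, read 5366.5, 7048, 1028 and 1154 in that order. The siYT+8Br-cAMP array stood apart in its 3' to 5' signal ratios. For ACTB the ratio was 1.35 against 1.07 to 1.14 on the other arrays, and for GAPDH 1.13 against 0.888 to 0.962. The SD between probe sets of 1 gene was also larger in comparisons that use it, 0.54 and 0.55 for genes over 16 times the floor against 0.34 and 0.35 in the others. Whether these ratios reflect RNA quality, and whether that had a part in the results that use this array, was not tested. Of 10 granulosa or KGN markers, 7 were above the floor on every array, and FSHR, AMHR2 and NR5A1 were below it on every array. With 8Br-cAMP, 5 of the 7 were called higher in each comparison and 0 lower. STAR (29.1-fold and 27.2-fold), CYP19A1 (35.65-fold and 3.44-fold), INHA (4.69-fold and 3.14-fold) and FOXL2 (2.23-fold and 2.43-fold) were called in both, GATA4 with control siRNA (2.08-fold) and INHBA after knockdown (6.575-fold). With knockdown, CYP19A1 was 39.2-fold and 3.78-fold higher, KRT18 4.82-fold and 6.89-fold lower, and INHBA 3.365-fold lower without 8Br-cAMP. Markers of blood and antigen-presenting cells were low: of 14 measured, 7 were below the floor everywhere (AIF1, ITGAX, LYZ, TYROBP, MS4A1, CD1C and CD163). CD79A and CD14 were called lower with knockdown in the presence of 8Br-cAMP (at least 3.02-fold and at least 2.07-fold), ITGAM was called higher with 8Br-cAMP after knockdown (at least 2.04-fold), and FCER1G, at 55.0 to 102, was not called. The pan-leukocyte gene PTPRC (CD45) read 9.14 without and 17.7 with 8Br-cAMP under control siRNA, and 4.66 without and 80.0 with it after knockdown. The summed intensity of the 14 markers was 569, 764, 507 and 567 in that order, and 3, 5, 3 and 4 of them were above the floor.

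Most of the class II genes read higher with 8Br-cAMP, whether or not YAP and TAZ had been knocked down. With control siRNA, 7 of the 10 genes were called higher (HLA-DRA, HLA-DPA1, HLA-DPB1, HLA-DMA, HLA-DMB, CD74 and CIITA), where 4.34% of all genes were called higher. After YAP/TAZ knockdown 7 of the 10 were called higher, HLA-DOA now among them and HLA-DPA1 not, where 5% of all genes were. In both comparisons 6 of the 10 were called higher (HLA-DRA, HLA-DPB1, HLA-DMA, HLA-DMB, CD74 and CIITA), beside 1.46% of all genes. RFXAP was the 1 gene called lower, in both, where 5.22% and 9.88% of all genes were called lower and 2.08% in both. The median log2 difference over the 10 genes was 1.90 with control siRNA and 1.64 after knockdown, and over all genes it was 0.00 in each. Since these same values chose the genes, nothing is read from the counts against the background. In bulk RNA, more cells that express a gene and more of its RNA per cell cannot be told apart. Both 8Br-cAMP comparisons are drawn from separate pairs of arrays, but each shares an array with either knockdown comparison.

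**Figure D1:**
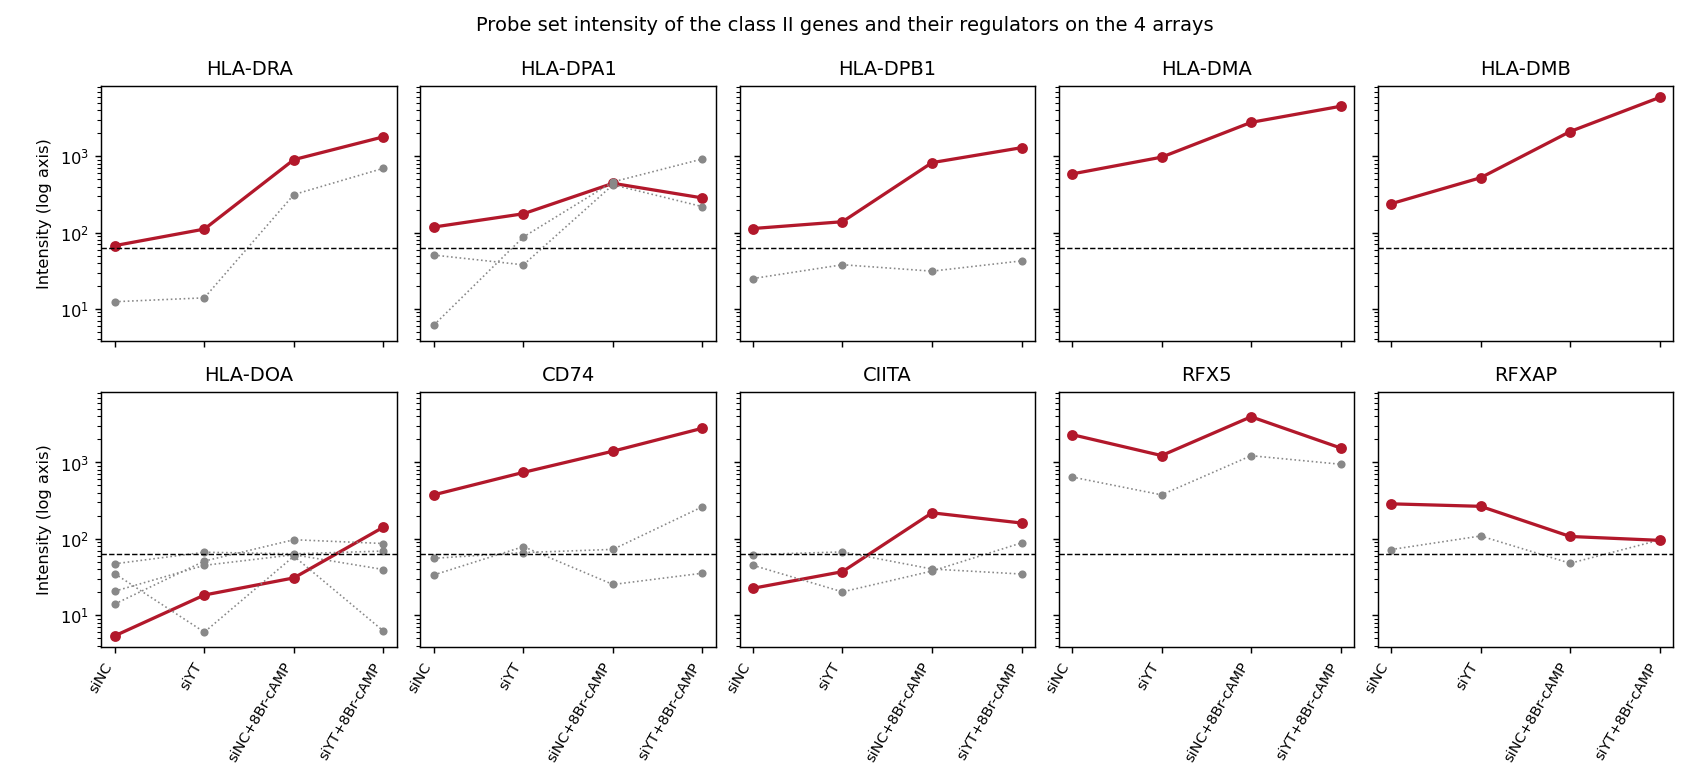
Intensity (log axis) of the 10 genes on the arrays siNC, siYT, siNC+8Br-cAMP and siYT+8Br-cAMP. The red line is the representative probe set, grey dotted lines are the gene's other probe sets, the dashed line is the floor of 62.6, and lines join points for reading only. By representative probe sets, HLA-DRA, HLA-DPB1, HLA-DMA, HLA-DMB and CD74 stand in the same order on the 4 arrays. HLA-DPA1, CIITA, RFX5 and RFXAP do not, and HLA-DOA is above the floor on the siYT+8Br-cAMP array alone.

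The promoters of 5 class II pathway genes are printed here because each holds a match to the Y box, and those of HLA-DMA, HLA-DMB and HLA-DOA also to the X1 box, the sites of NF-Y and RFX. The bases are from RefSeq (GRCh38.p14), read in the direction of the gene, and end at the last base before the annotated start. They span chr6:32953098-32953247 (minus strand) for HLA-DMA, chr6:32941029-32941178 (minus strand) for HLA-DMB, chr6:33009592-33009741 (minus strand) for HLA-DOA, chr6:33075840-33075989 (plus strand) for HLA-DPB1 and chr5:150412911-150413060 (minus strand) for CD74. Capitals mark matches, on either strand, to the Y box (CCAAT), the core of the X2 box (TGACG) and the core of the X1 box (GNNACNGAT).
HLA-DMA: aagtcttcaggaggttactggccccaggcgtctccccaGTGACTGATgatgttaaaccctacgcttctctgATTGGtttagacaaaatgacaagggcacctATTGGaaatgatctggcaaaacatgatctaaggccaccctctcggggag
HLA-DMB: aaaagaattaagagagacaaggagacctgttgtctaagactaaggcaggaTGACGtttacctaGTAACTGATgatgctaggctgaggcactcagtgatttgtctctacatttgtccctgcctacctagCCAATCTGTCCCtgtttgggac
HLA-DOA: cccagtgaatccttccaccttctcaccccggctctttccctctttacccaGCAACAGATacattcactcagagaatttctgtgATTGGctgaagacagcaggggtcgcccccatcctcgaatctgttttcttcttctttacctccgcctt
HLA-DPB1: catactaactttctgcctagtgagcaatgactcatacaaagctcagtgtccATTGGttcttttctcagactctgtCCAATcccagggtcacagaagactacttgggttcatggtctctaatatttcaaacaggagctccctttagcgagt
CD74: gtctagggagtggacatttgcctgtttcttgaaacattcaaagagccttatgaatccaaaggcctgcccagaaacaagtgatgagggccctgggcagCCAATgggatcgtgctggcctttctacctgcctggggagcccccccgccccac

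HLA-DMA, HLA-DMB and HLA-DOA each hold an X1 core upstream of a Y box in these windows. In HLA-DMA the X1 core lies 112 to 104 bases before the start, with Y boxes at 79 to 75 and 49 to 45 bases. In HLA-DMB an X1 core lies 87 to 79 bases before the start, an X2 core at 100 to 96 bases and a Y box at 22 to 18 bases. A further minus-strand X1 match in HLA-DMB, 19 to 11 bases before the start, overlaps that Y box, and the run of capitals there joins them. In HLA-DOA the X1 core lies at 100 to 92 bases and the Y box at 67 to 63 bases. HLA-DPB1 has Y boxes at 99 to 95 and 75 to 71 bases, and CD74 has a Y box at 53 to 49 bases. Neither printed stretch holds an X1 or X2 core.

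Over the 250 bases before the start, RefSeq promoters were at hand for 8 of the 10 genes, with 11 starts in all (HLA-DMA, HLA-DMB, HLA-DOA, HLA-DPA1, HLA-DPB1, CD74, RFX5 and RFXAP). The shares over all promoters count each start, so the members' counts by start are the like measure. A Y box was present in 6 of the 8 genes (6 of the 11 starts), and in 32% of all 35116 promoters. An X1 core was present in 3 of the 8 (3 of the 11 starts), and in 5.54% of all promoters. The X2 core was found in 5 of the 8 (7 of the 11 starts) and in 21.2% of all. The full palindromic cyclic AMP element (TGACGTCA), which contains the X2 core, was found in 0 of the 8 and in 1.65% of all. GGAATG is the site of the TEAD factors through which YAP and TAZ act on DNA. It was found in RFX5 and HLA-DMA, 2 of the 8 (3 of the 11 starts), and in 11.9% of all. The windows of 2 RFX5 starts overlap and share their TEAD match and an X2 core. The counts by start therefore take these bases again for each start. A match is only a run of letters, and its absence concerns these windows alone.

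**Figure D2:**
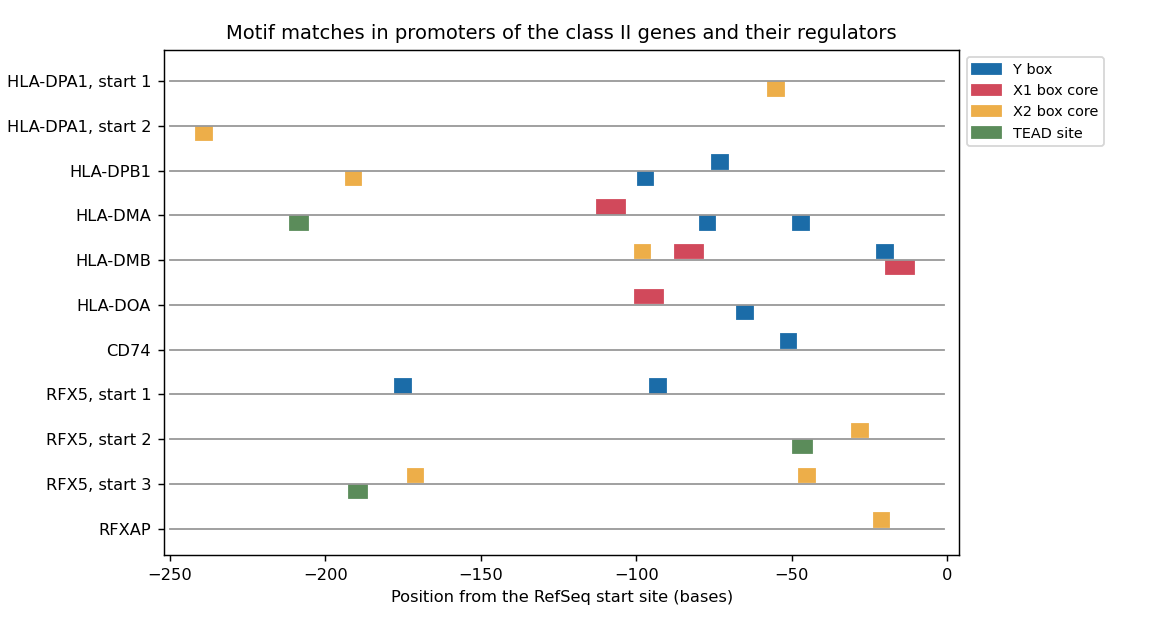
Position of motif matches in the bases before the annotated start (horizontal axis, bases relative to the start) for the member promoters at hand, 1 line per start. Boxes cover the matched bases, above the line for the strand of the gene and below it for the other strand, and colours mark the motif. X1 cores are seen in HLA-DMA, HLA-DMB and HLA-DOA, and Y boxes in these and in HLA-DPB1, CD74 and RFX5.

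Among the classical chains, HLA-DRA, the alpha chain of every HLA-DR molecule, had the largest difference with 8Br-cAMP. Its representative probe set (208894_at) read 67.5 without and 901 with 8Br-cAMP under control siRNA, and 111 without and 1789.9 with it after knockdown, so the siNC array lay just above the floor and both 8Br-cAMP arrays far above it. The fold with 8Br-cAMP was 13.3 with control siRNA and 16.1 after knockdown, log2 differences of 3.74 and 4.01 that are 8.5 and 7 times the SD between probe sets. In rank from the highest of 14427 genes these were number 9 and number 6. The gene's other probe set read 12.5, 314, 14.0 and 694 in the same order, higher with 8Br-cAMP by at least 5.02-fold and at least 11.1-fold.

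HLA-DPB1 (201137_s_at), the beta chain of HLA-DP, read 113 without and 823 with 8Br-cAMP under control siRNA, and 139 without and 1291.0 with it after knockdown. It was 7.28-fold and 9.31-fold higher with 8Br-cAMP, which is 6.5 and 5.6 times the SD. Its second probe set stayed below the floor on every array. HLA-DPA1, the alpha chain of the same pair, has 3 probe sets that went apart. The representative (211990_at) read 118, 441, 176 and 284, higher by 3.73-fold with control siRNA and by 1.61-fold after knockdown, the latter 1 SD. Another (211991_s_at) read 6.165, 461, 87.6 and 919, higher by at least 7.36-fold and by 10.5-fold. The last (213537_at) read 50.8, 422, 37.8 and 218, higher by at least 6.74-fold and at least 3.49-fold. All 3 were higher with 8Br-cAMP in both comparisons, and they parted on which 8Br-cAMP array was the higher.

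HLA-DM is the peptide exchanger of the pathway, and the genes of both its chains were called higher in each 8Br-cAMP comparison. HLA-DMB (203932_at), the beta chain, read 239 without and 2101 with 8Br-cAMP under control siRNA, and 522 without and 5872 with it after knockdown. It was 8.81-fold and 11.2-fold higher with 8Br-cAMP, 9 and 6.5 times the SD, and ranked 22 and 9 from the highest. HLA-DMA (217478_s_at), the alpha chain, read 585, 2768, 969.8 and 4494.5, 4.73-fold and 4.63-fold higher, 6.4 and 4.1 times the SD. Each gene has 1 probe set, and that of HLA-DMA, like that of HLA-DPB1, carries a suffix for probes that may bind several transcripts.

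HLA-DOA, the alpha chain of the HLA-DM inhibitor HLA-DO, was barely read. Of its 5 probe sets, 2 were below the floor on all arrays. The representative (211142_x_at) read 5.40 without and 30.9 with 8Br-cAMP under control siRNA, and 18.4 without and 142 with it after knockdown, above the floor only on the last array, and its call of at least 2.27-fold after knockdown rests on that 1 value. Another read 14.1, 97.6, 51.3 and 87.1, higher with 8Br-cAMP by at least 1.56-fold and at least 1.39-fold, and not called. One more stayed between 47.3 and 69.3. HLA-DOB, which encodes the beta chain of HLA-DO, was below the floor in both of its probe sets on every array.

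CD74, the invariant chain, was above the floor on every array by its representative probe set (209619_at), which read 378 without and 1405 with 8Br-cAMP under control siRNA, and 742 without and 2806 with it after knockdown. It was 3.72-fold and 3.78-fold higher with 8Br-cAMP, 5.4 and 3.6 times the SD. A second probe set read 55.7, 72.9, 66.2 and 264, called higher after knockdown (3.98-fold) and not with control siRNA, and another, at 33.8, 25.3, 79.2 and 35.6, was above the floor on 1 array. With the mean over its probe sets CD74 was called after knockdown and not with control siRNA. Levels of different probe sets depend on their probes and are not set against each other as amounts of RNA.

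CIITA, the switch of the class II genes, read 22.6 without and 219.5 with 8Br-cAMP under control siRNA, and 37.3 without and 161 with it after knockdown by its representative probe set (205101_at). It was below the floor on both arrays without 8Br-cAMP and above it on both with, higher by at least 3.51-fold and at least 2.58-fold. With a floor at the 75th percentile of all values, or with the mean over probe sets, it was not called. Its other probe sets did not show this: the first read 45.1, 38.0, 20.3 and 88.7, and the second 62.3, 40.4, 67.6 and 34.7. CIITA is made from several promoters, and which transcripts the probe sets read was not analysed here.

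Of the subunits of the RFX complex, to which CIITA binds at the promoter, RFXAP alone was called with 8Br-cAMP by its representative probe set. RFX5 (202963_at), its DNA-binding subunit, read 2315.5 without and 3964 with 8Br-cAMP under control siRNA, and 1232 without and 1548 with it after knockdown, 1.71-fold and 1.26-fold higher with 8Br-cAMP and not called. Its second probe set read 646, 1227, 377 and 948.5, higher by 1.90-fold with control siRNA and by 2.52-fold after knockdown. RFXAP (229431_at), another subunit, read 288, 108, 267 and 95.7, lower with 8Br-cAMP by 2.67-fold and 2.79-fold, 2.6 and 2.2 times the SD. Its second probe set read 72.6, 48.0, 109 and 96.7, lower by at least 1.16-fold and by 1.13-fold. RFXANK, the remaining subunit, is no member and was looked up after the members' values were seen: it read 666, 896, 506 and 668, with no call in any comparison.

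**Figure D3:**
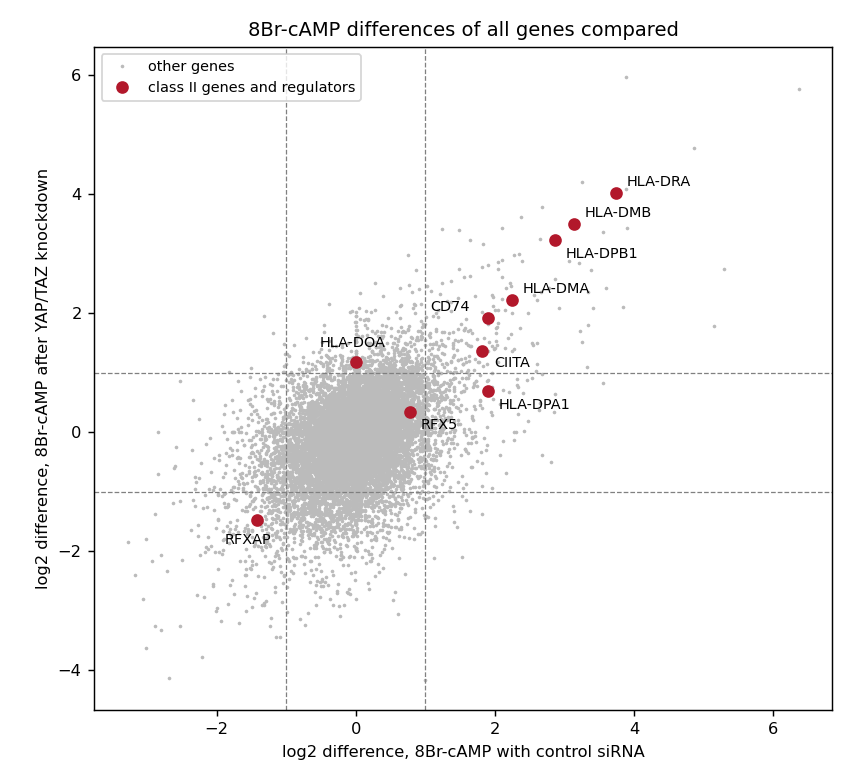
Log2 difference with 8Br-cAMP after knockdown (vertical axis) against that with control siRNA (horizontal axis) for the genes compared, in grey, with the 10 members named in red. The axes come from separate pairs of arrays, dashed lines mark the 2-fold threshold, and values against the floor are bounds. HLA-DRA, HLA-DMB and HLA-DPB1 lie at the upper right, and RFXAP is below the threshold on both axes.

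YAP/TAZ knockdown was compared without and with 8Br-cAMP. Without it, 1 of the 10 genes, HLA-DMB, was called higher (2.19-fold) and 0 lower, beside 7.3% and 6.05% of all genes. With it, 2 were called higher, HLA-DMB (2.80-fold) and HLA-DOA (at least 2.27-fold), and RFX5 was called lower, beside 6.74% and 9.48%. HLA-DMB alone was called higher in both and 0 genes lower in both, beside 2.38% and 2.81% of all genes. The median log2 difference over the 10 genes was 0.44 without and 0.67 with 8Br-cAMP, against 0.00 over all genes in each.

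By representative probe sets, 4 other genes for class II chains or their chaperone read higher on the siYT array of each pair. Each stayed below the threshold. HLA-DRA was higher by 1.65-fold without and 1.99-fold with 8Br-cAMP, CD74 1.97-fold and 1.996-fold, HLA-DMA 1.66-fold and 1.62-fold, and HLA-DPB1 1.23-fold and 1.57-fold. The SD between probe sets puts these at 1.5 and 1.7 SD for HLA-DRA, 2.9 and 1.8 for CD74, 2.1 and 1.3 for HLA-DMA and 0.63 and 1.1 for HLA-DPB1. HLA-DMB stood at 3.3 and 2.7 SD. Other probe sets of HLA-DRA (2.21-fold) and CD74 (3.62-fold) were past the threshold, higher with knockdown in the presence of 8Br-cAMP. Without it, that of HLA-DRA was below the floor on both arrays and that of CD74 was at least 1.06-fold higher. A further CD74 probe set was below the floor on both 8Br-cAMP arrays. RFX5 was lower on both siYT arrays, by 1.88-fold without and 2.56-fold with 8Br-cAMP, 2.7 and 2.5 SD, and its second probe set was lower by 1.71-fold and 1.29-fold. CIITA was below the floor on both arrays without 8Br-cAMP and 1.36-fold lower after knockdown with it. RFXAP differed by 1.08-fold and 1.12-fold, lower in each.

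**Figure D4:**
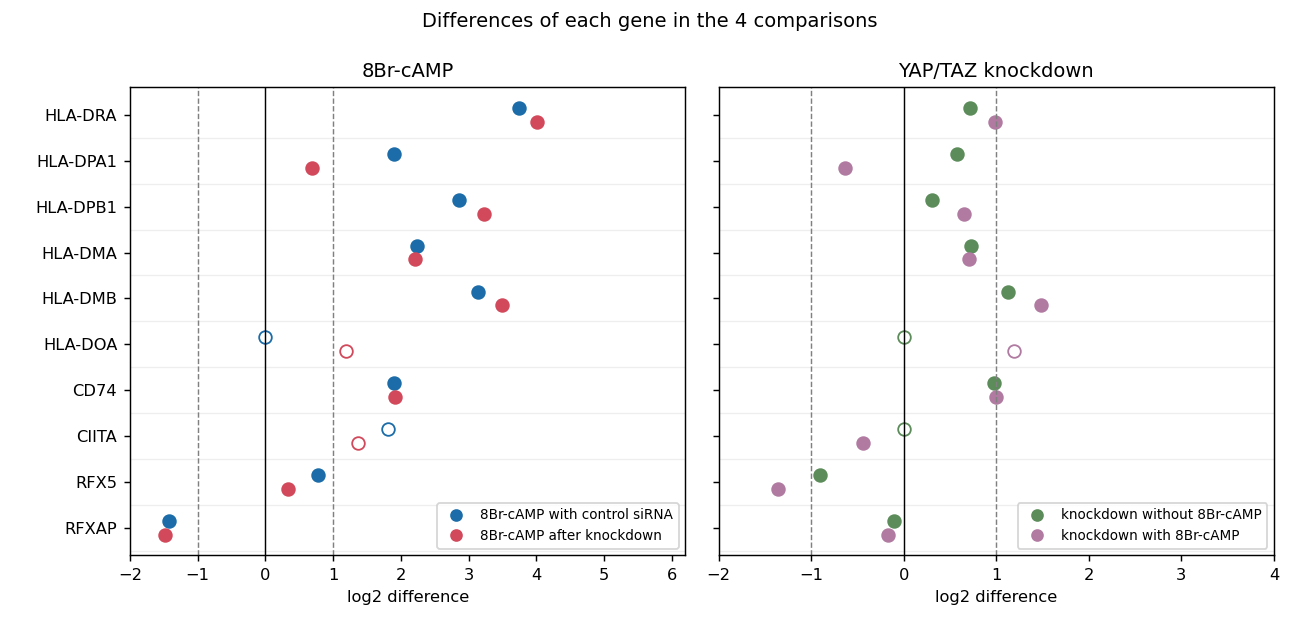
Log2 difference of each gene's representative probe set in the 4 comparisons (horizontal axis), with the 2-fold thresholds as dashed lines. Open circles are bounds or values with both sides below the floor. Each point is 1 difference between a pair of arrays, so there are no error bars. HLA-DRA, HLA-DPB1, HLA-DMA, HLA-DMB and CD74 lie to the right of 0 in every comparison.

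The siYT+8Br-cAMP array, which combined both treatments, was the highest of the 4 for most of the class II genes. HLA-DRA, HLA-DPB1, HLA-DMA, HLA-DMB and CD74 all stood in the order siNC, siYT, siNC+8Br-cAMP, siYT+8Br-cAMP. That is 5 of the 8 members above the floor on all arrays, and 763 of 10795 such genes (7.07%) had this order. The order was picked with the members' values known, and these values chose the genes, so nothing is read from the share. From siNC to siYT+8Br-cAMP the fold was 26.5 for HLA-DRA, 24.6 for HLA-DMB, 11.4 for HLA-DPB1, 7.68 for HLA-DMA and 7.43 for CD74. It was 2.40 for HLA-DPA1, at least 2.58 for CIITA and at least 2.27 for HLA-DOA, while RFX5 was 1.495-fold lower and RFXAP 3.01-fold lower.

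The difference of differences asks whether 8Br-cAMP changed a gene by another factor after knockdown than with control siRNA. On the log2 scale it was 0.27 for HLA-DRA, 0.35 for HLA-DPB1, -0.03 for HLA-DMA, 0.35 for HLA-DMB and 0.02 for CD74, each under 1 SD between probe sets. Other probe sets of HLA-DRA (1.14, against siNC and siYT values below the floor) and CD74 (1.77) were past the threshold, and the second of RFX5 gave 0.40. By the representatives, CIITA, RFX5 and RFXAP had -0.44, -0.45 and -0.06. It was called for HLA-DPA1 (-1.21, lower) and HLA-DOA (1.19, higher), where 9.56% of all genes were called lower and 5.39% higher. Over all genes 36.1% of the calls were higher, and cyclic loess or quantile normalization moved that share to 46.2% and 45.3%. For HLA-DPA1 the value was 1.5 SD, and the probe set that read 919 in siYT+8Br-cAMP gave the opposite direction. For HLA-DOA it rests on the 1 array above the floor, and a probe set with no sharing suffix gave -0.16.

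Of the other genes for class II chains, 7 had a probe set of their own and 3 were above the floor on any array. HLA-DRB1, the main DR beta chain, read 107 without and 458 with 8Br-cAMP under control siRNA, and 89.85 without and 963.5 with it after knockdown, 4.28-fold and 10.7-fold higher with 8Br-cAMP. The knockdown arrays were 1.19-fold lower in the untreated pair and 2.10-fold higher in the 8Br-cAMP pair, a difference of differences of 1.32. The HLA-DRB1 probe set carries a suffix for probes that may bind several transcripts, and the part of this in its values was not tested. Probe sets annotated to several class II genes and above the floor on an array had differences of differences of 0.14, 0.07, 0.39 and 0.23. HLA-DQB1 read 102, 112.5, 107 and 11.5, and HLA-DQA1 read 3.43, 83.7, 13.1 and 6.35, so neither representative DQ probe set was higher on both 8Br-cAMP arrays than on their partners by 2-fold. Another HLA-DQB1 probe set read 17.2, 145.5, 96.8 and 85.5, called higher with 8Br-cAMP under control siRNA (at least 2.32-fold). HLA-DRB4, HLA-DQB2, HLA-DOB and HLA-DPB2 were below the floor throughout. HLA genes differ between people, and which alleles KGN carries was not analysed here.

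Of 10 measured X and Y box factors and coactivators outside the members, 0 were called higher with 8Br-cAMP in either comparison, and 1 and 3 were called lower. Over all genes the shares were 4.34% and 5% higher, and 5.22% and 9.88% lower. CREBBP, the CREB-binding acetyltransferase, read 349.8 without and 137.5 with 8Br-cAMP under control siRNA, and 706 without and 94.5 with it after knockdown, lower in both (2.545-fold and 7.47-fold). KAT2B, another acetyltransferase, read 903, 547, 1211 and 129, and CREB1 read 1714, 1229, 2298 and 418, both called lower after knockdown only. The methyltransferase CARM1 was 1.84-fold and 1.305-fold lower and EP300, the relative of CREBBP, 1.295-fold and 1.992-fold lower. The lowest values of all 3 called genes came from the siYT+8Br-cAMP array, whose 3' to 5' ratios stood apart, and the part of this in their differences was not tested. The list's median log2 difference was -0.46 and -0.42 with 8Br-cAMP and 0.10 and -0.48 with knockdown, against 0.00 over all genes.

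On the interferon-gamma route to CIITA, 10 of 11 measured genes were above the floor on an array, and IFNG itself was below it everywhere. IRF1, a factor that acts on the CIITA promoter, read 1204 without and 319 with 8Br-cAMP under control siRNA, and 1221 without and 347.5 with it after knockdown, lower with 8Br-cAMP by 3.77-fold and 3.51-fold. IRF2, its relative, was 2.41-fold and 1.48-fold higher, and USF1, an E-box factor, 2.78-fold and 1.104-fold higher. EZH2, a histone methyltransferase of gene silencing, was 1.515-fold and 2.56-fold lower. SOCS1, an inhibitor of JAK signalling, was 1.203-fold and 1.35-fold lower. In all, 2 genes were called higher and 1 lower with control siRNA, and 0 higher and 2 lower after knockdown, beside 4.34% and 5.22% of all genes in the first comparison and 5% and 9.88% in the second.

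The endosomal list holds proteases, ligases that act on membrane proteins, and also CST3, LAMP1, AP1M1 and AP2M1. In this list more genes were called with knockdown than with 8Br-cAMP. Of 16 measured genes, 6 were called higher by knockdown without 8Br-cAMP and 3 by knockdown with it, while 1 and 0 were called lower. Over all genes 7.3% and 6.74% were called higher, and 6.05% and 9.48% lower. With 8Br-cAMP, 0 were called higher and 1 lower under control siRNA, and 1 higher and 0 lower after knockdown. The median log2 difference with knockdown was 0.76 and 0.62, against 0.00 over all genes. CTSL, a cathepsin, read 6267 without and 12038 with 8Br-cAMP under control siRNA, and 14665 without and 43336 with it after knockdown, 2.34-fold and 3.6-fold higher with knockdown. MARCHF8, a ubiquitin ligase that acts on membrane proteins, was 2.74-fold and 3.06-fold higher. CST3, the cathepsin inhibitor cystatin C, was 2.31-fold and 2.32-fold higher. The cathepsins CTSS, CTSH and CTSF were called higher only without 8Br-cAMP (2.18-fold, 2.02-fold and 2.115-fold). MARCHF1, the ligase best known for removing class II from the surface, read 264, 80.85, 105 and 85.1, high on the siNC array alone.

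Among the CD74 receptor partners, MIF, its ligand, read from 28636 to 37666 and was not called. CD44, the signalling partner, read 13199.5 without and 13675 with 8Br-cAMP under control siRNA, and 26284 without and 11857.5 with it after knockdown, lower with 8Br-cAMP after knockdown by 2.22-fold. CXCR4 read 39.3, 53.8, 82.2 and 148, above the floor on both siYT arrays only. Of 8 co-stimulation genes, 0 were called higher in any of the 4 comparisons, where 4.34% to 7.3% of all genes were, so that few calls among 8 genes carry little information. ICAM1 was 2.04-fold and 1.504-fold lower with 8Br-cAMP, and PDCD1LG2 was 2.19-fold and 1.235-fold lower with knockdown. CD58 was 1.74-fold and 1.59-fold higher with knockdown, and ICOSLG 1.52-fold and at least 1.83-fold lower. Differences on the whole list had medians between -0.33 and -0.05.

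**Figure D5:**
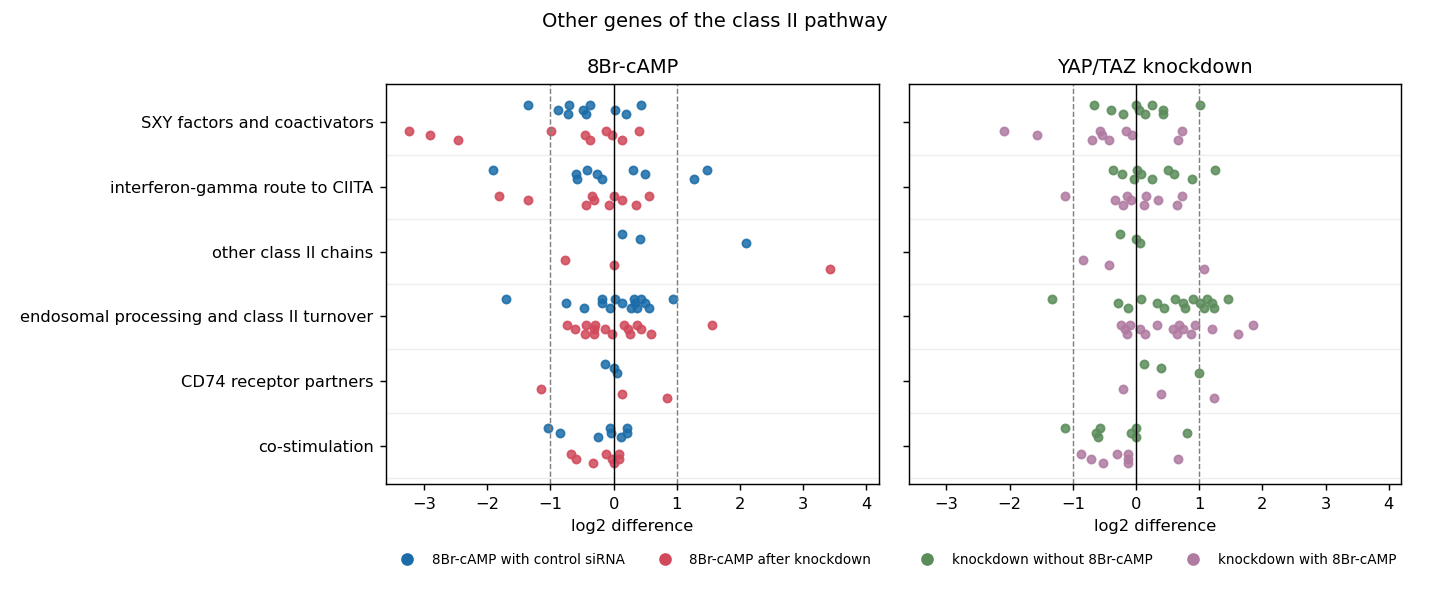
Log2 differences of the other genes of the class II pathway, 1 point per gene, with 8Br-cAMP (left) and YAP/TAZ knockdown (right) and the 2-fold thresholds as dashed lines. HLA-DRB1 is the point farthest to the right among the other class II chains, and KAT2B, CREBBP and CREB1 are the low points of the SXY (promoter module) factors after knockdown.

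RFX5 was the reference for a search for like patterns, by a rule that took the member probe set with the highest mean intensity, which ranks probe sets and not amounts of RNA. Over the 4 arrays and 10795 genes above the floor on all of them, the nearest patterns by root mean square distance of mean-centred log2 values were those of WDR18 (0.04), MICALL2 (0.05), NCR2 (0.08), EXOSC9 (0.09) and SLC4A4 (0.11). HLA-DMA was taken as a further reference after the values were seen. Nearest to it were TNFRSF1B (0.09), SLC1A3 (0.10), LXN (0.12), SMOX (0.12) and PC (0.17), with CD74 at rank 10 (0.21) and HLA-DPB1 at rank 54 (0.44). TNFRSF1B, a tumour necrosis factor receptor, read 154 without and 639 with 8Br-cAMP under control siRNA, and 252.5 without and 1047 with it after knockdown. With 4 points a pattern is only coarsely defined.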

How the data were processed

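RNA of KGN cells was measured on 4 Affymetrix arrays, 1 per group. The authors deposited 1 intensity per probe set, on a linear scale. The submitters' processing notes name RMA and Affymetrix Expression Console, whose versions are not given in the sources used here, but RMA values are on a log scale, and the deposited intensity values had a 2% trimmed mean of 500.1 on every array, as MAS5 scaling to a target of 500 gives. Their background correction and summary stay unknown.

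Values below 62.6 (log2 5.97), the median of all, were set to that floor, and log2 was taken of the deposited intensities with no further normalization. Only the 41097 of 54675 probe sets with a single annotated gene symbol were used. A gene's probe set with the highest mean of floored log2 values represented it. Knockdown differences were YAP/TAZ siRNA minus control siRNA, without and with 8Br-cAMP. The 8Br-cAMP differences were treated minus untreated, with control siRNA and after knockdown, and the difference of differences was the last minus the one before it. Python 3.11.15 with numpy 2.4.6 and pandas 2.3.3 was used, and limma 3.58.1 in R 4.3.3 for cyclic loess and quantile normalization.

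The members and lists were chosen with earlier results of these data known. Named were all members and their probe sets, YAP1 and WWTR1, of each list the genes called alike in both comparisons of a factor and up to 4 more with the largest mean difference, and the 5 genes nearest in pattern to the member with the highest mean level. Alternatives were other floors, log2 of the value plus the median, no floor, the mean over probe sets, exclusion of shared probe sets, both normalizations, a threshold of 1.5-fold and, added after seeing the data, the probe set with the highest linear mean. Samples were mapped by their labels, and nothing in the labels gives a batch.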

Additional observations from a re-analysis of the deposited data

Results flagged for a closer look

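The representative probe set of HLA-DPA1 read opposite ways with knockdown, by a log2 difference of 0.58 without 8Br-cAMP and of -0.64 with it. These are 1 and 0.9 times the SD between probe sets, and neither was called. Each compares 1 array with 1 array, and the difference between them was not tested. Of its 3 probe sets, 1 was higher and 2 were lower with knockdown in the presence of 8Br-cAMP, from -0.95 to 1.00 on the log2 scale.

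Outside the comparisons lie 6 probe sets that the annotation gives to several class II genes at once, 4 of them above the floor on an array. They name no gene. One with 2 symbols was 4.93-fold higher with 8Br-cAMP under control siRNA and 5.42-fold higher after knockdown. One with 4 symbols was 6.64-fold and 6.99-fold higher, and another with 4 symbols was at least 5.77-fold and 7.58-fold higher. With knockdown in the presence of 8Br-cAMP these were 1.21-fold, 1.13-fold and 1.56-fold higher in the same order. Their differences of differences were 0.14, 0.07 and 0.39.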

How the results depend on the processing

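No paired analysis was possible because each group held 1 array, and for the same reason no replicate could be left out. Of 425 values of single members under 9 alternatives (the 1.5-fold threshold changes only counts), 362 kept within 1 SD between probe sets, 58 moved further and 5 reversed. The SD here was that of probe sets over 4 times the floor, for every member. A reversal was counted only where the main log2 difference was at least 1 in size, and smaller values that changed sign were sorted by their shift alone. Among these, HLA-DPA1's knockdown difference with 8Br-cAMP went from -0.64 to 1.00 with the probe set of highest linear mean. HLA-DPA1's difference of differences became 0.51 with the probe set of highest linear mean, and HLA-DOA's knockdown difference with 8Br-cAMP and its difference of differences became -0.16 each with that choice and without shared probe sets. Among counts of members, knockdown without 8Br-cAMP called 0 higher with a floor at the 75th percentile and with log2 of the value plus the median, 2 with no floor and 4 higher and 1 lower at 1.5-fold, against 1 higher and 0 lower. Knockdown with 8Br-cAMP called 1 higher with the 75th percentile floor, without shared probe sets and with the highest linear mean, against 2. It called 3 higher with quantile normalization, 4 with cyclic loess and 6 at 1.5-fold. Lower were 0 with the mean over probe sets and 2 at 1.5-fold, against 1. RFXAP's call with 8Br-cAMP left 0 lower with the 75th percentile floor and with the mean over probe sets in both comparisons. Under control siRNA 8Br-cAMP called 5 higher with the 75th percentile floor or the mean over probe sets, against 7. It called 8 higher with no floor or at 1.5-fold. After knockdown it called 5 with the 75th percentile floor, 6 with the mean and 8 at 1.5-fold, against 7. The 75th percentile floor left 7 members to compare. Without shared probe sets 5 were called higher with 8Br-cAMP under control siRNA and 4 after knockdown. HLA-DMA then has no probe set and that of HLA-DPB1 is below the floor throughout, so 8 members are compared. HLA-DOA is then represented by another probe set. For the difference of differences 0 were called higher with the value plus the median, no floor, the mean, no shared probe sets or the highest linear mean. Lower were 2 with a 25th percentile floor or no floor, and 0 with the 75th percentile floor, the value plus the median, the mean, quantile normalization or the highest linear mean. The counts over all genes ranged further. With knockdown without 8Br-cAMP 1053 were higher (500 to 2556) and 873 lower (511 to 2170), and with it 973 (493 to 2578) and 1367 (598 to 2888). With 8Br-cAMP they were 626 (295 to 1903) and 753 (339 to 2029) under control siRNA and 722 (407 to 2337) and 1425 (612 to 3076) after knockdown, and for the difference of differences 778 (369 to 2474) and 1379 (503 to 3179). The lowest counts came with the 75th percentile floor and the highest with the 25th percentile floor or 1.5-fold.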
